A study of Mus musculus with 18 samples.

Results

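Lin28b, Igf2bp1, Igf2bp2, Igf2bp3, Hmga1, Hmga2, Sox4 and Arid3a, 8 genes tied to fetal blood-cell formation, were followed through 18 RNA sequencing libraries of mouse T-lineage cells. They were chosen by gene symbol, 8 of the 43280 symbols counted. The question was whether T cells made from induced pluripotent stem cells keep a fetal pattern of expression. No group is labelled fetal, so such a pattern cannot be judged directly here. Cells from this source were all cultured and the splenic cells were not, so source and culture cannot be told apart in comparisons with spleen. In short, Lin28b, Igf2bp3, Hmga1 and Arid3a were higher in all 3 groups of cultured cells than in splenic CD8+ cells. Sox4 was higher than in spleen in the CD4+CD8+ and Artificial CD8 cells and lower than in spleen in the iRTE cells. Hmga2 was close to absent in every group, and Igf2bp2 was low throughout.

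The libraries fell into 4 groups. The CD4+CD8+ cells (n = 3), also called double-positive, the stage at which thymocytes are selected, were grown from an induced pluripotent stem cell source named Pmel iPSC on OP9-DL1, a mouse bone marrow stromal line that carries a Notch ligand. The Artificial CD8 cells (n = 5) were CD8+ cells of the same source, described in the labels as OP9 CD8. The iRTE cells (n = 5) were also CD8+ cells from Pmel iPSC, and no label explains the name. The design text describes a 3D thymic culture, which falls to iRTE only by elimination, since the growth protocol of every sample, spleen included, describes differentiation on OP9-DL1. For reference, naive CD8+ cells (n = 5) were taken directly from the spleen of transgenic mice. Pmel is the name of a mouse line with a transgenic T-cell receptor against a melanocyte protein, and the descriptions of the splenic samples carry that name too. No age of mice and no further allele is given in the labels. The sort used CD45, CD8, CD4 and TCR alpha-beta, and cells with NK1.1, CD11c or TCR gamma-delta were gated out. Whether replicates are separate cultures or mice is not stated in the labels, and the p-values therefore cover only the spread between these samples, which may be technical.

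Levels are given in CPM, a gene's counts per 1000000 counts of its library, after TMM scaling, a correction for differences in RNA composition. Total counts ran from 11132768 to 19305751 per library. Against those totals 3 counts, the limit used here for a gene with no count, corresponded to between 0.152 and 0.287 CPM, which covers counting error only. Of the 8 genes, 7 passed the filter on low counts that left 13922 genes for testing. Hmga2 did not pass. T-cell markers (Cd3d, Cd3e, Cd3g, Cd8a and others, 10 in all) summed to between 5639 and 9732 CPM in every library, and within that list Cd4 was at 0 in all iRTE libraries. Of 10 pluripotent cell markers, Nanog, Zfp42, Esrrb, Sall4 and Lin28a were at 0 in all 18 libraries, and the list summed to at most 0.532 CPM in any cultured library. In spleen it summed to 17.4 to 21.5 CPM, nearly all of it from 1 gene, Tdgf1 (mean 19.3 CPM), and the other 9 summed to at most 0.663 CPM there. These are bulk samples, so fewer cells with a transcript and less transcript per cell cannot be told apart.

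As background, LIN28B is an RNA-binding protein of fetal progenitors that binds precursors of the let-7 microRNAs and keeps them from maturing. With LIN28B present, let-7 stays low and messages with let-7 sites are spared; around birth LIN28B falls, let-7 rises and those messages decline. Forced expression of Lin28b in adult mouse blood progenitors is known to bring back fetal features of lymphocyte formation. HMGA1 and HMGA2 are chromatin proteins that bind AT-rich DNA, IGF2BP1 to IGF2BP3 are RNA-binding proteins that stabilise or localise messages, ARID3A is a DNA-binding protein best known in B-lineage cells, and SOX4 is a transcription factor of early lymphoid cells and thymocytes. Several of these genes are textbook let-7 targets, which is part of how such lists come about, so their let-7 sites are a description and not a finding of these data.

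The microRNAs of this family share bases 2 to 8, the seed, which pairs with sites in messages. Among the RefSeq mouse microRNAs, 11 mature forms carried the let-7 seed. The 4 printed here show how the family differs only outside the seed, which is in capitals.
let-7a-5p: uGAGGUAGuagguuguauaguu
let-7g-5p: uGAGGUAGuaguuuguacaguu
let-7i-5p: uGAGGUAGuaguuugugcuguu
miR-98-5p: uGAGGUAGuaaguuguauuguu

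The complement of that seed, CTACCTC, was searched on the sense strand of 3′ UTRs, using for each gene 1 GENCODE M21 transcript on GRCm38. It was found in 7 of the 8 genes, against 8.18% of 20727 protein-coding genes with a 3′ UTR. A longer UTR has more room for a match, and the UTRs of the 8 genes ran from 1183 to 6337 bases. Within the first 1000 bases the match was found in 4 of the 8, against 6.53% of the 9279 genes whose UTR was at least that long. Lin28b, Igf2bp1 and Hmga2 held 4 matches each, Arid3a 2, and Igf2bp2, Igf2bp3 and Hmga1 1 each, while the 2780-base UTR of Sox4 held none. The match nearest the stop codon in each of the 7 genes is printed with its surroundings, the match in capitals.
Lin28b: cgggcgggaagtCTACCTCatg
Igf2bp1: gtgcgaagtaaaCTACCTCaag
Igf2bp2: cacaaataaaagCTACCTCagg
Igf2bp3: atttttactcaaCTACCTCagg
Hmga1: tctgttcacaaaCTACCTCtgg
Hmga2: gacattcaatttCTACCTCagc
Arid3a: gcaagtttctttCTACCTCagg

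On GRCm38 these stretches lay at chr10:45381020-45381041 (minus strand) for Lin28b, chr11:95961776-95961797 (minus) for Igf2bp1, chr16:22059471-22059492 (minus) for Igf2bp2 and chr6:49086785-49086806 (minus) for Igf2bp3. Those of the other genes lay at chr17:27563280-27563301 (plus) for Hmga1, chr10:120364222-120364243 (minus) for Hmga2 and chr10:79953898-79953919 (plus) for Arid3a. All are exonic and in the 3′ UTR. In Lin28b and Hmga2 the match began 36 and 21 bases after the stop codon. The printed Igf2bp1, Igf2bp2, Igf2bp3, Hmga2, Lin28b and Arid3a matches are followed by an A, a base known to favour microRNA targeting, and that of Hmga1 is not.

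**Figure D1:**
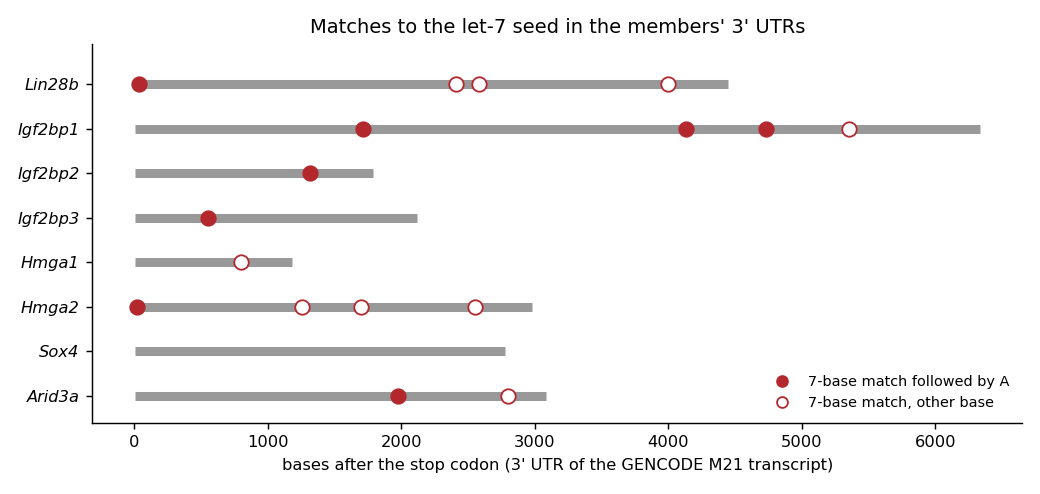
Positions of the 7-base let-7 seed match along the 3′ UTR of each gene, in bases after the stop codon (horizontal axis), 1 line per gene drawn to the length of its UTR. Filled points are matches followed by A and open points are matches followed by another base; Sox4 carries no point.

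Lin28b was read in every cultured library and in no splenic one. The 3 CD4+CD8+ libraries held 8.64, 10.04 and 9.55 CPM, and the 5 Artificial CD8 libraries held 13.8, 20.03, 7.81, 11.8 and 10.3 CPM. In iRTE the values were 0.192, 3.90, 0.884, 5.85 and 7.93 CPM, and all 5 splenic libraries had 0 counts. Cultured and splenic libraries did not overlap, and the iRTE libraries spread widely, with the highest of them just above the lowest Artificial CD8 library. The lowest, iRTE 1, rested on 2 counts, which is under the limit of 3. Set against that limit in the splenic library where it was highest (0.255 CPM), the mean level was at least 37.0-fold higher in CD4+CD8+ cells, at least 50.0-fold higher in Artificial CD8 cells and at least 14.7-fold higher in iRTE cells. The adjusted p of edgeR's quasi-likelihood test was 5.84e-06, 1.66e-06 and 2.11e-05 in that order. Lin28b had no splenic count and passed the filter on low counts only through cultured cells. A difference from spleen was therefore fixed by the filter, and these p-values add no support. The 3 comparisons share the splenic libraries, here and below.

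Among cultured cells, Lin28b averaged 3.75 ± 3.27 CPM in iRTE (SD, n = 5), 12.7 ± 4.62 CPM in Artificial CD8 (SD, n = 5) and 9.41 ± 0.711 CPM in CD4+CD8+ cells (SD, n = 3). It was lower in iRTE than in Artificial CD8 by a log2 change of -1.74 (SE 0.90), with an adjusted p of 0.0317 in edgeR's quasi-likelihood test, and the libraries of the groups overlapped. That call was lost when iRTE 2, iRTE 3, Artificial CD8 1 or Artificial CD8 2 was left out, with adjusted p from 0.0545 to 0.0802 in edgeR's quasi-likelihood test over those 4 fits. Against CD4+CD8+ cells all 5 iRTE libraries lay lower, at a log2 change of -1.31 (SE 0.87) that did not pass the threshold (adjusted p = 0.177, edgeR's quasi-likelihood test). That difference passed with limma-voom (log2 change -1.98, adjusted p = 0.0284) and, in edgeR's test, with iRTE 1 to 3 as the only iRTE libraries (log2 change -2.48, adjusted p = 0.00536), where iRTE 4 and 5 alone gave -0.45 (adjusted p = 0.432). Lin28b spans chr10:45376620-45486395 on GRCm38, minus strand. Its paralogue Lin28a had no counts in any library.

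Igf2bp3 followed the same order of groups at a higher level. The CD4+CD8+ libraries held 85.0, 83.5 and 77.5 CPM, the Artificial CD8 libraries 106, 105, 94.3, 93.8 and 96.2 CPM, and the splenic libraries 4.86, 5.73, 4.50, 6.51 and 4.92 CPM. The iRTE libraries held 10.9, 25.9, 28.2, 21.7 and 67.8 CPM. Every iRTE library lay between the splenic and the other cultured libraries, overlapping neither, and iRTE 5 stood well above the other 4. Relative to spleen the log2 change was 2.55 (SE 0.43) in iRTE, 4.22 (SE 0.10) in Artificial CD8 and 3.95 (SE 0.10) in CD4+CD8+ cells, with adjusted p of 2.39e-06, 4.45e-09 and 3.45e-08 in edgeR's quasi-likelihood test. Igf2bp3 was lower in iRTE than in Artificial CD8 by a log2 change of -1.67 (SE 0.42, adjusted p = 0.000205) and than in CD4+CD8+ cells by -1.40 (SE 0.42, adjusted p = 0.00419), by the same edgeR test. The second of these calls was lost when those 2 groups were fitted alone (adjusted p = 0.0814, with 1.86e-06 to 0.0814 over the 17 alternatives, edgeR or the other tools). Artificial CD8 and CD4+CD8+ cells did not differ past the threshold (log2 change 0.27, SE 0.06, adjusted p = 0.648, edgeR).

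Igf2bp3 lies at chr6:49085223-49214957 on GRCm38, minus strand, and shares 1529 exonic bases with Malsu1, a gene on the opposite strand. The strand setting of the counting is not given in the sources used here, so reads of that stretch cannot be told apart without it. Malsu1 itself averaged 28.3 CPM in CD4+CD8+, 25.6 CPM in iRTE, 26.1 CPM in Artificial CD8 and 16.0 CPM in splenic cells. Its log2 changes from spleen, 0.82, 0.67 and 0.71 in the 3 cultured groups in that order, were smaller than those of Igf2bp3.

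The other members of the Igf2bp family were near the limit of detection. Igf2bp1 had 0 counts in all CD4+CD8+ and splenic libraries, counts in 1 of 5 iRTE libraries (iRTE 5, 0.575 CPM), and values of 1.22, 0.185, 0, 1.07 and 2.01 CPM in Artificial CD8. It was at least 3.52-fold higher in Artificial CD8 than in spleen, with an adjusted p of 0.00628 in edgeR's quasi-likelihood test, although Artificial CD8 3 also had none. Igf2bp1 passed the filter on low counts only through Artificial CD8, the group where it was high, so a difference there was fixed by the filter and the p adds no support. Igf2bp2, by contrast, had its highest mean in spleen. It held 1.55, 1.25 and 0.890 CPM in CD4+CD8+, 0.766, 1.86, 1.503, 0 and 1.98 CPM in iRTE, 0.367, 0.740, 1.18, 2.08 and 0 CPM in Artificial CD8, and 2.10, 3.96, 1.69, 1.81 and 3.23 CPM in spleen. None of its 3 differences from spleen passed, with log2 changes of -1.04 (SE 0.31, adjusted p = 0.348), -1.06 (SE 0.78, adjusted p = 0.255) and -1.53 (SE 0.73, adjusted p = 0.1) for CD4+CD8+, iRTE and Artificial CD8 in edgeR's test. The difference of Artificial CD8 from spleen passed without Artificial CD8 4, the highest library of its group (log2 change -2.15, adjusted p = 0.0398, with 0.0344 to 0.205 over 17 alternatives, edgeR or the other tools). Igf2bp1 lies at chr11:95957163-96005940 and Igf2bp2 at chr16:22059009-22163299 on GRCm38, both on the minus strand.

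Hmga1 was the most abundant of the 8 genes. Its level was 132, 119 and 118 CPM in the CD4+CD8+ libraries, 193, 173, 172, 179 and 182 CPM in Artificial CD8, 51.5, 57.2, 65.9, 48.5 and 90.2 CPM in iRTE, and 22.5, 22.6, 24.2, 26.3 and 29.4 CPM in spleen. The 4 groups did not overlap, in the order spleen, iRTE, CD4+CD8+, Artificial CD8. Relative to spleen the log2 change was 1.33 (SE 0.17, adjusted p = 2.85e-07) in iRTE, 2.30 (SE 0.09, adjusted p = 1.02e-09) in CD4+CD8+ and 2.85 (SE 0.08, adjusted p = 1.38e-11) in Artificial CD8 cells, by edgeR's quasi-likelihood test. Hmga1 was lower in iRTE than in Artificial CD8 (log2 change -1.52, SE 0.16, adjusted p = 1.15e-07) and than in CD4+CD8+ cells (log2 change -0.97, SE 0.17, adjusted p = 0.000148), and higher in Artificial CD8 than in CD4+CD8+ cells (log2 change 0.55, SE 0.06, adjusted p = 0.0261), by the same edgeR test. The last call was lost without CD4+CD8+ 2, CD4+CD8+ 3 or Artificial CD8 1 (adjusted p from 0.0558 to 0.0863 in edgeR's test). Hmga1 lies at chr17:27556497-27563674 on GRCm38, plus strand.

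Hmga2, the relative of Hmga1 known from fetal stem cells, was hardly read. It had 1 count in CD4+CD8+ cells, 0 in iRTE, 4 over 2 libraries in Artificial CD8 and 1 in spleen. No library exceeded 0.123 CPM, which is under the limit of 3 counts. No fold is given for Hmga2. Hmga2 lies at chr10:120361275-120476469 on GRCm38, minus strand.

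Arid3a was higher than in spleen in all cultured groups, and it was the only 1 of the tested genes with its highest mean in iRTE, 34.8 ± 11.6 CPM (SD, n = 5). It held 15.5, 27.1 and 28.4 CPM in CD4+CD8+, 29.5, 24.9, 41.6, 26.1 and 51.8 CPM in iRTE, 31.6, 29.4, 32.4, 34.4 and 30.2 CPM in Artificial CD8, and 9.28, 7.07, 7.24, 6.09 and 8.32 CPM in spleen. All 13 cultured libraries lay above all splenic ones, and the cultured groups overlapped except that every Artificial CD8 library exceeded every CD4+CD8+ one. The log2 change from spleen was 2.19 (SE 0.23, adjusted p = 1.15e-07) in iRTE, 2.05 (SE 0.11, adjusted p = 1.4e-07) in Artificial CD8 and 1.64 (SE 0.30, adjusted p = 1.11e-05) in CD4+CD8+ cells, by edgeR's quasi-likelihood test. Between iRTE and Artificial CD8 the log2 change was 0.14 (SE 0.21, adjusted p = 0.62, edgeR), and it turned to -0.05 without iRTE 5. Against CD4+CD8+ cells iRTE differed by a log2 change of 0.56 (SE 0.35, adjusted p = 0.101, edgeR), which passed without iRTE 4 (log2 change 0.65, adjusted p = 0.048, with 0.048 to 0.371 over 17 alternatives, edgeR or the other tools). Arid3a lies at chr10:79927043-79955018 on GRCm38, plus strand.

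Sox4 separated iRTE from the other cultured cells. Its values were 60.8, 95.3 and 84.9 CPM in CD4+CD8+, 98.5, 98.7, 105, 96.7 and 97.2 CPM in Artificial CD8, 1.82, 9.32, 11.9, 10.96 and 14.5 CPM in iRTE, and 19.5, 19.8, 22.3, 22.9 and 23.8 CPM in spleen. All 5 iRTE libraries lay below all 5 splenic libraries, and all 8 other cultured libraries lay above them. Relative to spleen the log2 change was -1.14 (SE 0.53, adjusted p = 0.00246) in iRTE, 2.20 (SE 0.06, adjusted p = 2.57e-06) in Artificial CD8 and 1.89 (SE 0.20, adjusted p = 5.48e-05) in CD4+CD8+ cells, by edgeR's quasi-likelihood test. The direct difference of iRTE from Artificial CD8 was a log2 change of -3.34 (SE 0.53, adjusted p = 1.19e-07) and from CD4+CD8+ cells one of -3.04 (SE 0.56, adjusted p = 1.99e-06), by the same edgeR test. Sox4 lies at chr13:28948919-28953713 on GRCm38, minus strand. Of its close relatives, Sox11 had no counts, and Sox12 averaged 0.189 CPM in CD4+CD8+, 0.303 CPM in iRTE, 2.08 CPM in Artificial CD8 and 0.752 CPM in spleen.

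**Figure D2:**
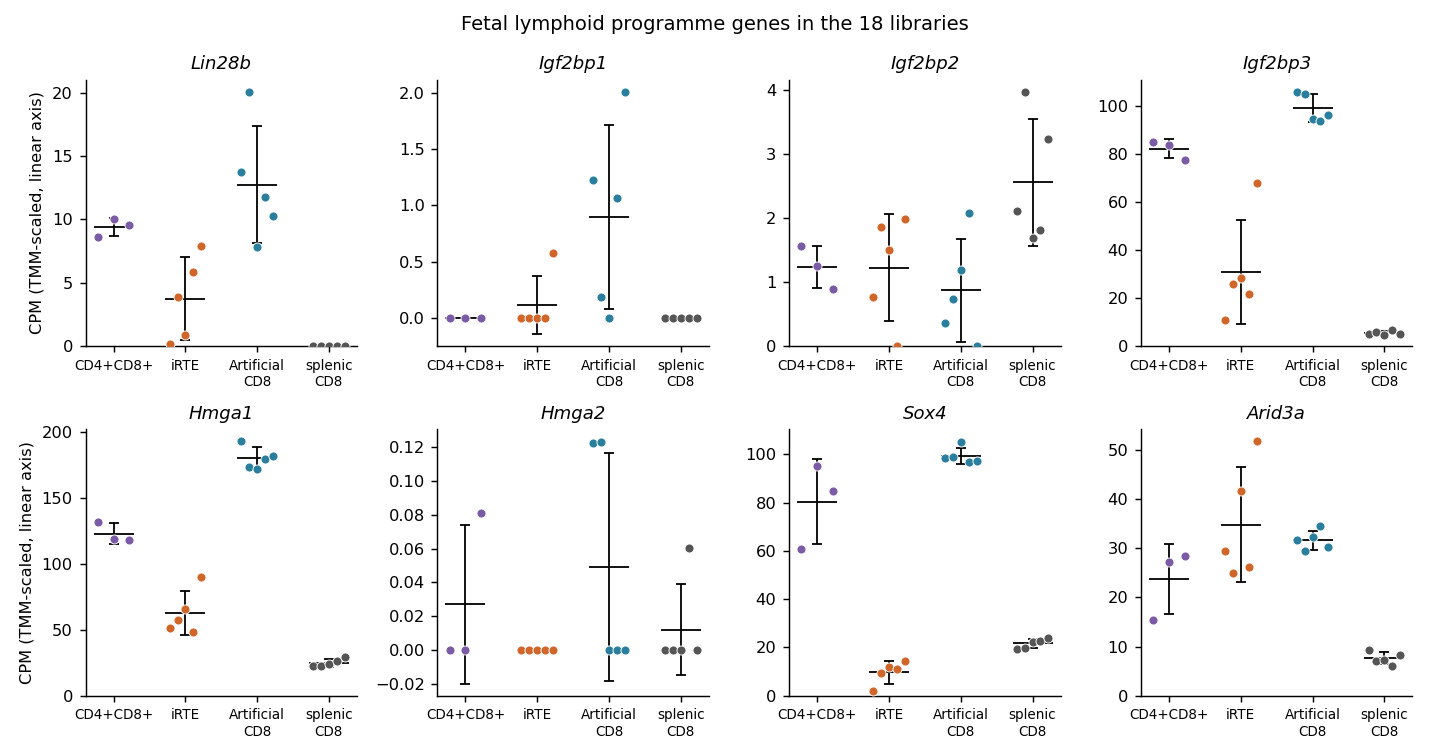
Level of each of the 8 genes in CPM (vertical axes, linear and different for each gene) in the 18 libraries by group (horizontal axes); points are libraries and lines with bars are the mean and SD of a group. Lin28b is at 0 in all splenic libraries, the iRTE libraries of Sox4 lie under the splenic ones, and Hmga2 stays under 0.123 CPM.

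Counted together, 4 of the 8 genes rose and 1 fell in iRTE relative to spleen, beside 29.2% and 29% of all genes tested. In Artificial CD8 cells 6 rose and 0 fell, beside 30.3% and 30.2% of all genes. In CD4+CD8+ cells 5 rose and 0 fell, beside 28.9% and 27.4%. Between iRTE and Artificial CD8 none was higher and 4 were lower in iRTE (Lin28b, Igf2bp3, Hmga1 and Sox4), beside 20% and 18.7%, and between iRTE and CD4+CD8+ cells none was higher and 3 were lower (Igf2bp3, Hmga1 and Sox4), beside 11.8% and 12.3%. Between Artificial CD8 and CD4+CD8+ cells 1 was higher (Hmga1) and 0 were lower, beside 6.54% and 8.12%. Each count of 0 comes from edgeR's quasi-likelihood test. At an unadjusted p under 0.05 those counts were again 0, except for 1 gene higher in iRTE than in CD4+CD8+ cells (Arid3a). DESeq2 also gave 0 for each, and limma-voom gave 0 except for 1 gene lower in Artificial CD8 than in spleen (Igf2bp2). Counting libraries without overlap in place of calls, 5 of the 8 genes were apart between iRTE and spleen, 5 between Artificial CD8 and spleen and 6 between CD4+CD8+ and spleen, beside 41.2%, 61.1% and 63.4% of all genes tested. The same counts were 3 for iRTE and Artificial CD8, 4 for iRTE and CD4+CD8+, and 4 for Artificial CD8 and CD4+CD8+, beside 23.6%, 19.5% and 29%. The median log2 change of the 7 genes tested was 2.20 in iRTE, 2.85 in Artificial CD8 and 1.89 in CD4+CD8+ cells relative to spleen, where the median of all genes tested was -0.05, -0.03 and -0.03. The genes were chosen with earlier results of these data in view, and a gene that passed the filter through its high group alone had to differ. Lin28b and Igf2bp1 had no splenic count and passed only through cultured cells, and both are included in the medians of the 7 genes. Among the 5 tested genes with a splenic count, 3 rose in iRTE, 4 in Artificial CD8 and 4 in CD4+CD8+ cells, and 1 fell in iRTE. Their log2 changes from spleen, in rising order, were -1.14, -1.06, 1.33, 2.19 and 2.55 in iRTE. They were -1.53, 2.05, 2.20, 2.85 and 4.22 in Artificial CD8. In CD4+CD8+ cells they were -1.04, 1.64, 1.89, 2.30 and 3.95.

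**Figure D3:**
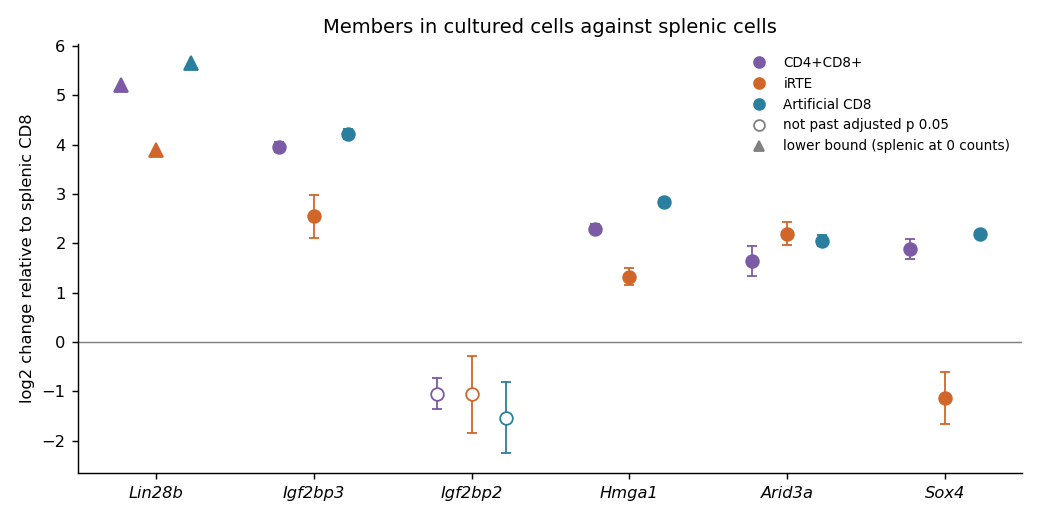
Log2 change from splenic CD8 cells (vertical axis) of 6 genes (horizontal axis) in the 3 cultured groups, with SE bars; open points did not pass the threshold, and triangles are lower bounds for Lin28b, which has no counts in spleen. Igf2bp1 and Hmga2 are not drawn. Sox4 lies at -1.14 in iRTE and at 2.20 and 1.89 in the other cultured groups, while Igf2bp3, Hmga1 and Arid3a lie above 0 in all 3.

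Levels per kilobase of exonic sequence allow the genes to be set beside each other. In Artificial CD8 cells Hmga1 stood at 84.6 CPM per kilobase, Sox4 at 20.7, Igf2bp3 at 12.1, Arid3a at 5.68 and Lin28b at 1.41. In iRTE the order was Hmga1 at 29.5 CPM per kilobase, Arid3a at 6.26, Igf2bp3 at 3.79, Sox4 at 2.03 and Lin28b at 0.414. Arid3a thus moved from the fourth place to the second in iRTE, and Sox4 from the second to the fourth. In spleen Hmga1 (11.8 CPM per kilobase) was followed by Sox4 (4.52), Arid3a (1.37) and Igf2bp3 (0.650). The lengths are those of GRCm38 gene models, not of the mm9 models behind the counts.

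The SD of log2 CPM was largest in iRTE for Lin28b, Igf2bp2, Igf2bp3, Hmga1 and Sox4, but in Artificial CD8 for Igf2bp1 and in CD4+CD8+ cells for Arid3a. The median SD of all genes tested was also largest in iRTE. It was 0.475 there, 0.302 in CD4+CD8+, 0.214 in Artificial CD8 and 0.166 in splenic cells. In iRTE the SD exceeded that of 34.7% of all genes for Hmga1, 48.1% for Arid3a, 77.9% for Igf2bp3, 85.1% for Sox4 and 94.4% for Igf2bp2. iRTE 5 was the highest of its libraries for Lin28b, Igf2bp1, Igf2bp2, Igf2bp3, Hmga1, Sox4 and Arid3a. The highest iRTE level was 7.98 times the lowest for Sox4, 6.21 times for Igf2bp3, 2.08 times for Arid3a and 1.86 times for Hmga1. Much of that range came from single libraries: without iRTE 1 it was 1.56 times for Sox4 and 3.12 times for Igf2bp3, and without iRTE 5 it was 2.58 times for Igf2bp3. For Lin28b, whose lowest value is under the limit of 3 counts, the highest was 8.96 times the lowest over the other 4 libraries. The spread of Lin28b in iRTE, an SD of 1.94 on the log2 scale, exceeded that of 97.1% of all genes tested in the same libraries, and without iRTE 1 it was 1.32 and exceeded 87.6%. iRTE 1 was the lowest library for Lin28b, Igf2bp3 and Sox4, while iRTE 4 was lowest for Igf2bp2 and Hmga1 and iRTE 2 for Arid3a. The descriptions call iRTE 1 to 3 mature, where those of the CD4+CD8+ libraries read immature. They call iRTE 4 and 5 pmel iRTE, where those of the splenic libraries read pmel T naive. Nothing is said of what this wording marks. Using iRTE 1 to 3 alone, the log2 change of Lin28b from Artificial CD8 was -2.92, and using iRTE 4 and 5 alone it was -0.89. The number of the 8 genes higher than in spleen was 4 with either set.

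Across the 18 libraries Lin28b, Igf2bp3 and Hmga1 ran closely together. Pearson's r of log2 CPM was 0.978 for Igf2bp3 and Hmga1, 0.968 for Igf2bp3 and Lin28b, and 0.927 for Hmga1 and Lin28b. Sox4 ran less closely with them, at 0.643 with Igf2bp3, 0.658 with Hmga1 and 0.583 with Lin28b, and at 0.143 with Arid3a. These correlations describe 4 groups of libraries whose means differ, and no test is attached to them. Among 8985 genes, those most like Lin28b were Pdia5 (r = 0.978), Igf2bp3 (r = 0.968) and Tox3 (r = 0.964), and those most like Igf2bp3 were Il9r (r = 0.986), Prss57 (r = 0.982) and Maged1 (r = 0.981). Il9r, the receptor chain for interleukin-9, averaged 15.9 CPM in CD4+CD8+, 2.87 CPM in iRTE, 18.5 CPM in Artificial CD8 and 0 in splenic cells. Most like Hmga1 were Tubb2b (r = 0.989), Cdca7 (r = 0.987) and Yars (r = 0.986), most like Sox4 were Smo (r = 0.955), Ptpn14 (r = 0.950) and Nt5c2 (r = 0.944), and most like Arid3a were Stxbp6 (r = 0.969), Eif5a (r = 0.961) and Fads2 (r = 0.961). Smo, the signal-transducing receptor of the hedgehog pathway, shared with Sox4 a low level in iRTE (2.10 CPM) and spleen (2.71 CPM) beside 111 CPM in Artificial CD8 and 26.7 CPM in CD4+CD8+ cells. The rarely read Igf2bp1 and Igf2bp2 gave lower values, with Samd1 (r = 0.856) and Ercc8 (r = 0.830) at the head of their lists.

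**Figure D4:**
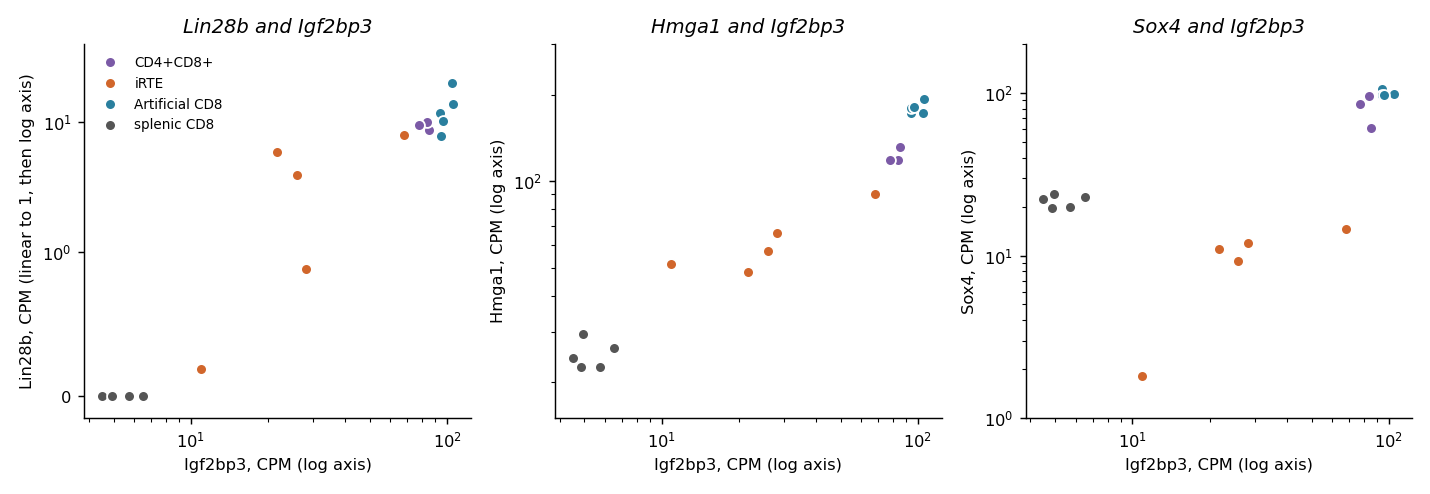
Lin28b, Hmga1 and Sox4 (vertical axes, CPM) against Igf2bp3 (horizontal axes, CPM, log axis), 1 point per library, coloured by group; the Lin28b axis is linear to 1 CPM and logarithmic above, the other axes are logarithmic. The first 2 genes rise with Igf2bp3 from spleen through iRTE to the other cultured cells, and the iRTE points of Sox4 lie below those of spleen.

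Lin28b and Igf2bp3, which ran together over the libraries, share a pair of the motifs looked for in the RefSeq promoters, which are printed for that reason. Hmga1, which ran still more closely with Igf2bp3 (r = 0.978, beside 0.968 for Lin28b), held neither motif of that pair. In all, 6 motifs were searched on both strands, the E boxes of MYC and of E proteins, the CCAAT, GC and TATA boxes and the core of TCF1 and LEF1 sites. The shared motifs were picked out after the search, so their shares of all promoters are a description only. RefSeq (GRCm38.p6) had a promoter entry for 6 of the 8 genes, all but Igf2bp1 and Arid3a. In the 250 bases before the start site both genes held 1 CACGTG, the E box bound by MYC and MAX, and 1 CCAAT box, in capitals where ATTGG is its reverse complement. On either strand, CACGTG is found in 6.04% and CCAAT in 33.8% of 32536 promoters of that length.
Lin28b: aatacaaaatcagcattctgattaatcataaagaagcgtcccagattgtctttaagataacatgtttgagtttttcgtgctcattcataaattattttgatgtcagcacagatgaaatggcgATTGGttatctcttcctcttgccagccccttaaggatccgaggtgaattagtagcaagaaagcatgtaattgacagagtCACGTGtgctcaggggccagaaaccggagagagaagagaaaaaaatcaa
Igf2bp3: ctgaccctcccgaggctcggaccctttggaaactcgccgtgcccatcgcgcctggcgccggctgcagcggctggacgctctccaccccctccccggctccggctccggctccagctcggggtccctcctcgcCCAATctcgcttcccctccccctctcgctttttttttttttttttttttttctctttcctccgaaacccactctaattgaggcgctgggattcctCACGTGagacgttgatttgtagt

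The Lin28b stretch is chr10:45470202-45470451 and that of Igf2bp3 is chr6:49214955-49215204, both on GRCm38.p6 and the minus strand. The RefSeq start of Lin28b lies inside the longer GENCODE gene model. The E box ended 44 bases before the start site in Lin28b and 18 bases before it in Igf2bp3. None of the other 4 genes with an entry held CACGTG. Sox4 held 4 CCAAT boxes, and GC boxes (GGGCGG, found in 33% of promoters) were present in Hmga1, Hmga2 and Igf2bp2. The TCF1 and LEF1 core CTTTGA (in 13.9% of promoters), the E box of E proteins, CAGGTG (17.3%), and the TATA box TATAAA (12.3%) were in none of the 6 genes. A motif here is a run of letters, and no binding was measured.

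Genes that process, degrade or carry microRNAs were followed as a list of their own. Most of them serve microRNAs in general and not let-7 alone. Of 10 tested, 6 were lower in iRTE than in spleen, 5 lower and 2 higher in Artificial CD8, and 6 lower in CD4+CD8+ cells, with median log2 changes of -0.57, -0.48 and -0.65. Of all genes tested, 29%, 30.2% and 27.4% were lower in these comparisons, and 30.3% were higher in Artificial CD8. The 2 higher ones were Drosha (log2 change 0.87, SE 0.10, adjusted p = 0.00081) and Xpo5 (log2 change 0.46, SE 0.05, adjusted p = 0.00624), by edgeR's test. Ago2, the slicing Argonaute protein that carries mature microRNAs, averaged 103 ± 9.90 CPM in iRTE (SD, n = 5), 109 ± 5.91 CPM in Artificial CD8 (SD, n = 5), 76.7 ± 2.27 CPM in CD4+CD8+ cells (SD, n = 3) and 171 ± 13.4 CPM in spleen (SD, n = 5). Its log2 change from spleen was -0.73 (SE 0.08, adjusted p = 1.24e-06) in iRTE by edgeR's test. Zcchc11 and Zcchc6 encode uridylyl transferases that tag let-7 precursors. Both were lower than in spleen in all 3 cultured groups. Zcchc11 fell by 0.44 on the log2 scale in iRTE (SE 0.12, adjusted p = 0.0163), by 1.26 in Artificial CD8 (SE 0.09, adjusted p = 7.16e-07) and by 1.13 in CD4+CD8+ cells (SE 0.28, adjusted p = 3.12e-05), by edgeR's test. Zcchc6 fell by 0.69 in iRTE (SE 0.17, adjusted p = 0.00112), by 1.00 in Artificial CD8 (SE 0.08, adjusted p = 2.8e-05) and by 0.61 in CD4+CD8+ cells (SE 0.23, adjusted p = 0.00941), by the same test. Dis3l2, the nuclease that degrades tagged precursors, differed from spleen by 0.01 (adjusted p = 0.96), 0.05 (adjusted p = 0.811) and 0.14 (adjusted p = 0.506) on the log2 scale in iRTE, Artificial CD8 and CD4+CD8+ cells in edgeR's test.

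Other genes known as let-7 targets were more often higher than lower in cultured cells. Of 19 tested, 8 were higher and 1 lower in iRTE than in spleen, 12 higher and 2 lower in Artificial CD8, and 11 higher and 1 lower in CD4+CD8+ cells, with median log2 changes of 0.66, 1.21 and 0.95 beside the medians near 0 of all genes given above. Of all genes tested, 29.2%, 30.3% and 28.9% were higher and 29%, 30.2% and 27.4% lower in these comparisons. Of the 19, 17 had a count in spleen, and Mycn and Acvr1c, which had none, passed the filter only through cultured cells. Among those 17, 7, 10 and 10 were higher. The lower ones were Arid3b in iRTE (log2 change -1.18) and Artificial CD8 (-1.38), and Ccnd2 in Artificial CD8 (-1.07) and CD4+CD8+ cells (-1.17). Cdk6, a kinase that drives entry into the cell cycle, averaged 56.8 ± 2.26 CPM in CD4+CD8+ (SD, n = 3), 94.3 ± 38.1 CPM in iRTE (SD, n = 5), 97.8 ± 7.57 CPM in Artificial CD8 (SD, n = 5) and 19.25 ± 1.84 CPM in splenic cells (SD, n = 5). It rose by 2.29 (SE 0.24) in iRTE and by 2.34 (SE 0.08) in Artificial CD8 on the log2 scale, with edgeR adjusted p of 1.46e-08 and 5.86e-09. Myc rose by 2.50 in iRTE (SE 0.29, adjusted p = 3.76e-08) and Nras differed by 0.10 (SE 0.12, adjusted p = 0.451) there, both by edgeR's test. Of the 19, 2 were higher and 6 lower in iRTE than in Artificial CD8, beside 20% and 18.7% of all genes tested. The higher ones were Ccnd2 (log2 change 1.73, SE 0.23, adjusted p = 4.16e-07) and Myc (log2 change 0.87, SE 0.28, adjusted p = 0.00324), by edgeR's test. Cdc25a, a phosphatase that activates cyclin-dependent kinases, was among the lower ones (log2 change -1.29, SE 0.19, adjusted p = 3.17e-06, edgeR). Mature microRNAs were not measured. The count files hold 12 gene rows for let-7 family hairpins, of which Mirlet7i had the most counts, 37 over all libraries, and no other had more than 3.

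**Figure D5:**
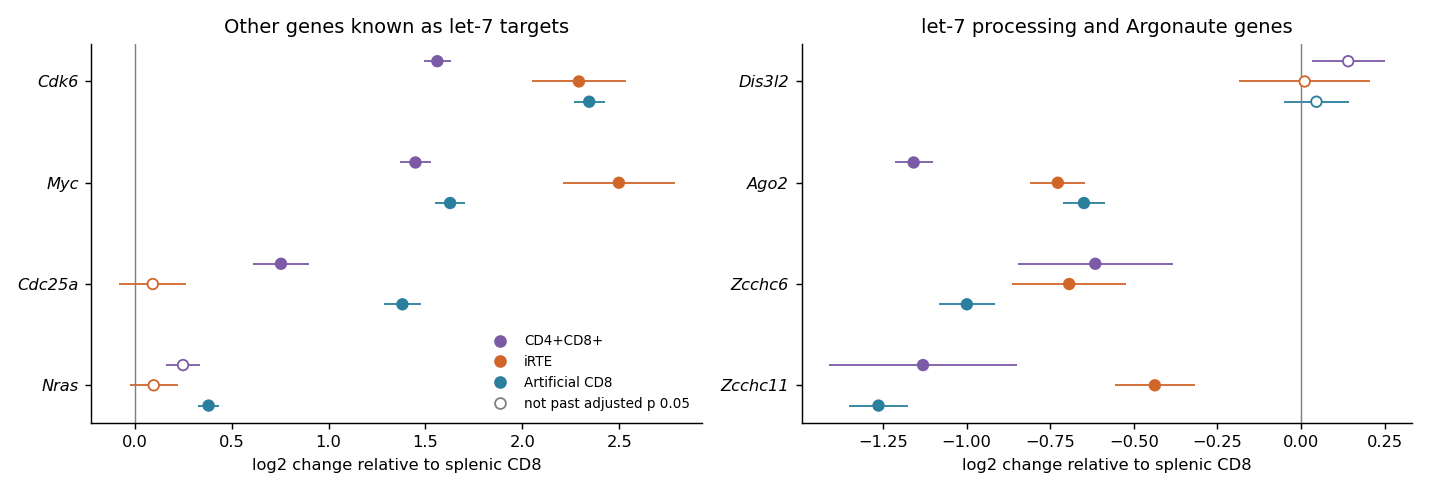
Log2 change from splenic CD8 cells (horizontal axes) in the 3 cultured groups, 1 row per gene, with SE bars. The known let-7 targets drawn are Cdk6, Myc, Cdc25a and Nras. The let-7 processing and Argonaute genes drawn are Ago2, Zcchc11, Zcchc6 and Dis3l2. Arid3b, Ccnd2, Drosha and Xpo5, which ran against most of their lists in a comparison with spleen, are not drawn. Open points did not pass the threshold. Cdk6 and Myc lie above 0 in all 3 groups, and Ago2 lies below 0 in all 3.

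Other genes of fetal stages did not form 1 pattern. Of 6 tested, 2 were higher and 1 lower in iRTE than in spleen, and 3 were higher and 1 lower in both Artificial CD8 and CD4+CD8+ cells. These counts stand beside 29.2%, 30.3% and 28.9% of all genes that were higher and 29%, 30.2% and 27.4% that were lower. In each group 2 of the higher ones, Igf2 and H19, had no count in spleen and passed the filter only through cultured cells. Among the 4 tested genes with a splenic count, 0 were higher in iRTE, 1 in Artificial CD8 and 1 in CD4+CD8+ cells. Igf2, a fetal growth factor whose message IGF2BP proteins bind, had 0 counts in spleen and averaged 29.2 ± 7.75 CPM in CD4+CD8+ (SD, n = 3), 40.9 ± 75.7 CPM in iRTE (SD, n = 5) and 25.8 ± 5.25 CPM in Artificial CD8 cells (SD, n = 5). The iRTE mean of Igf2 rested on a range from 3.26 to 176 CPM. H19, the imprinted noncoding RNA next to Igf2, averaged 42.9 ± 3.49 CPM in Artificial CD8, 9.17 ± 1.59 CPM in CD4+CD8+ and 0.192 ± 0.382 CPM in iRTE cells (SD, n = 5, 3 and 5), and had 0 counts in spleen. Its log2 change between iRTE and Artificial CD8 was -7.54 (SE 0.56, adjusted p = 2.63e-07, edgeR). The iRTE mean of H19 lay near the limit of 3 counts, which was 0.187 to 0.287 CPM in the iRTE libraries. Its rise over spleen in iRTE and the size of that fall from Artificial CD8 are therefore uncertain. Afp, the fetal liver protein, ran the opposite way and was lower than in spleen in iRTE (log2 change -2.25, SE 0.72, adjusted p = 0.0151) and Artificial CD8 (log2 change -5.76, SE 0.56, adjusted p = 2.9e-05), by edgeR's test. Dntt, the polymerase that adds bases at receptor gene joints and is known to be scarce in fetal lymphocytes, averaged 119 ± 10.4 CPM in CD4+CD8+ (SD, n = 3), 72.2 ± 10.6 CPM in Artificial CD8 (SD, n = 5), 5.79 ± 5.31 CPM in iRTE (SD, n = 5) and 39.4 ± 1.07 CPM in splenic cells (SD, n = 5). Dntt is also 1 of the double-positive thymocyte markers followed below. Of the close relatives, Arid3b was lower than in spleen in iRTE (log2 change -1.18, SE 0.32, adjusted p = 0.000211) and Artificial CD8 (log2 change -1.38, SE 0.09, adjusted p = 3.6e-05), by edgeR's test, opposite to Arid3a.

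Several other measures also differed between the groups, and not all in the order of the members. The summed level of 25 cell-cycle genes was 6383 to 7044 CPM in CD4+CD8+, 6834 to 8479 CPM in Artificial CD8, 1497 to 4428 CPM in iRTE and 1168 to 1272 CPM in splenic libraries, the same order of groups as for Hmga1 and Igf2bp3. Of these 25 genes, 24 were higher in iRTE than in spleen and 21 were lower in iRTE than in Artificial CD8 cells, beside 29.2% and 18.7% of all genes tested. Within iRTE the sum was 1497 CPM in iRTE 4 and 3946 to 4428 CPM in the others, and iRTE 4 held 5.85 CPM of Lin28b, the second highest of its group, and 48.5 CPM of Hmga1, the lowest. Their part in the levels of the members was not tested. The 9 double-positive thymocyte markers (Rag1, Rag2, Ptcra and others) summed to 1682 to 2045 CPM in CD4+CD8+, 1311 to 1472 CPM in Artificial CD8, 369 to 576 CPM in iRTE and 440 to 562 CPM in splenic libraries, with Rag1 and Ptcra at 0 in spleen and Cd4 at 0 in iRTE. In iRTE and spleen most of that sum was Themis, at a mean of 456 and 468 CPM, and it was at 417 CPM in CD4+CD8+ and 453 CPM in Artificial CD8. The other 8 summed to 1341 to 1592 CPM in CD4+CD8+, 910 to 1008 CPM in Artificial CD8, 6.61 to 73.4 CPM in iRTE and 46.8 to 54.4 CPM in spleen. Rag1 averaged 388 CPM in CD4+CD8+ and 0.631 CPM in iRTE cells, and Ptcra 128 and 0.831 CPM. Sox4 was likewise high in the first pair of groups and low in the second, and the part of these cells in its level was not tested. Stromal markers, 12 genes, summed to 1.38, 47.2 and 74.4 CPM from the lowest to the highest CD4+CD8+ library, 17.3 to 26.3 CPM in Artificial CD8, 0.973 to 4.31 CPM in iRTE and 2.32 to 3.82 CPM in spleen, with Dcn and Lum at 0 throughout. Different genes made up these sums. In Artificial CD8 it was mostly Pdgfrb (mean 18.5 CPM), and 6 of the 12 were at 0, while in CD4+CD8+ cells Fn1 (12.4 CPM), Col1a2 (7.64 CPM) and Pdgfrb (5.94 CPM) led. Without Pdgfrb the sums were 0.355 to 6.90 CPM in Artificial CD8 and 0 to 63.0 CPM in CD4+CD8+. The CD4+CD8+ library with 1.38 CPM of these markers, CD4+CD8+ 1, held 8.64 CPM of Lin28b and 85.0 CPM of Igf2bp3, and it was the lowest of its group for Sox4 (60.8 CPM) and Arid3a (15.5 CPM). The 8 blood progenitor markers, mostly Kit, summed to 95.4 to 140 CPM in CD4+CD8+, 38.0 to 56.9 CPM in Artificial CD8 and 0.810 to 3.11 CPM in splenic libraries. In iRTE they summed to 74.8, 125, 125, 24.2 and 4.73 CPM, so that iRTE 5, the highest iRTE library for 7 of the 8 genes, was the lowest for these markers. The 5 natural killer and gamma-delta T-cell genes summed to 1147 to 2224 CPM in cultured and 54.6 to 60.9 CPM in splenic libraries. Almost all of this was Tcrg-C1 and Tcrg-C2, constant segments of the gamma chain genes, and the other 3 (Ncr1, Klrb1c and Sox13) summed to at most 5.98 CPM in any cultured and 7.66 CPM in any splenic library. Ncr1 was at 0 in CD4+CD8+ and iRTE cells, and Sox13 averaged 0.124 CPM in iRTE and 5.71 CPM in spleen. The sort gated out NK1.1 and TCR gamma-delta cells. Markers of other blood cells were higher in spleen: 7 erythroid markers, mostly Hbb-bs and Hba-a1, summed to 169.5 to 218.7 CPM there and to at most 2.68 CPM in any cultured library, and 6 B-cell markers, mostly Cd79b, to 33.4 to 46.5 CPM and at most 7.10 CPM. Their part in the differences from spleen was not tested.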

How the data were processed

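RNA was sequenced from 18 libraries in 4 groups taken from the labels. The deposited counts are whole numbers for 43280 gene symbols per library. The submitters' processing notes name STAR 2.4.2, Subread, edgeR and build mm9. Strand setting and annotation release: not given in the sources used here. The log2 values of a second table that the authors deposited equal edgeR's TMM-scaled log2 CPM (prior count 2) and served only as a check. Columns of per-sample values without a sample numbered 0. Sequences and gene models come from RefSeq (GRCm38.p6) and GENCODE M21 (GRCm38), not from mm9, and no count depends on them.

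Genes were filtered with filterByExpr in edgeR 4.0.16 (R 4.3.3; minimum count 10), leaving 13922. Libraries were scaled by TMM, and 1 robust quasi-likelihood fit over all 18 gave 6 comparisons, with Benjamini-Hochberg adjustment over all genes and a threshold of 0.05. SE values come from the variances of log2 CPM (prior count 2) inside each group, not from the fit. Total counts ran from 11132768 to 19305751, and intervals and limits cover counting error only. Replicates differed by more than counting error (chi-square per degree of freedom at least 4.67). The fit was also run on simulated counts with few changed genes. Many genes differ from spleen here, so that run does not cover these comparisons.

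The members and the companion lists were chosen with earlier results of these data known. All members are named. From each companion list, genes were named per comparison with spleen. These were up to 3 past the threshold with the smallest adjusted p and up to 2 not past it with the highest level. Dntt and close relatives were always named. Some genes that this rule names are left out here. Ccnd2 and Drosha are named outside the rule, as each ran against most of its list in a comparison with spleen. Likeness names the 3 genes of highest r, with at least 10 CPM in a group and no predicted genes. Alternatives were RLE or library-total scaling, no filter, DESeq2 1.42.0, limma-voom (limma 3.58.1), the 2 groups alone, a replicate block, either set of iRTE libraries, and each library left out.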

Additional observations from a re-analysis of the deposited data

Results flagged for a closer look

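In 21 sets of 5 libraries (a gene in a group), 3 had a library set apart from the rest by a gap larger than 0.71 of the set's whole range. Igf2bp1 was at 0.575 CPM in iRTE 5 and at 0 in the other 4 iRTE libraries. Hmga2 was at 0.0603 CPM in splenic CD8 4, a single count, and at 0 in the other 4 splenic libraries. With 4 libraries at 0 such a gap is the whole range by construction, so these first examples carry no chance rate. Sox4 was at 105.1 CPM in Artificial CD8 3, where the nearest other Artificial CD8 library was at 98.7 CPM; for continuous values chance gives about 1 such set in 20.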

How the results depend on the processing

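Over the alternatives, 683 values of single genes kept their direction and side of the threshold, 12 newly passed, 11 no longer passed and 6 changed sign. Of the counts of members called, 194 stayed within 1.5 times the reported count and 10 moved. The count lower in Artificial CD8 than in spleen became 1 (Igf2bp2) with limma-voom, with the 2 groups alone and under the replicate block, and ran from 0 to 1 with a library left out. The count lower in CD4+CD8+ than in spleen became 1 with the 2 groups alone. The count higher in Artificial CD8 than in CD4+CD8+ became 2 with the 2 groups alone and ran from 0 to 1 with a library left out, and the count higher in iRTE than in CD4+CD8+ cells ran from 0 to 1. Lin28b in iRTE against Artificial CD8 lost its call in 7 of 19 alternatives (log2 change from -2.92 to -0.89), and its difference from CD4+CD8+ cells passed in 3 of 17, among them the replicate block (-3.05, adjusted p = 0.0265, edgeR). Igf2bp2 in iRTE against CD4+CD8+, reported at -0.02, turned to 0.119 under the replicate block and 0.164 with iRTE 1 to 3 alone, and ran from -0.277 to 0.316 with a library left out (above 0 without CD4+CD8+ 1, iRTE 1 or iRTE 4). Arid3a in iRTE against Artificial CD8 ran from -0.05 (without iRTE 5) to 0.238 with a library left out. The cause of these changes was not tested.

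Replicate numbers did not pair the samples: correlations of same-numbered deviations ran from -0.0663 to 0.0587. With the replicate block the counts higher and lower were 4 and 1, 6 and 1, and 5 and 0 for iRTE, Artificial CD8 and CD4+CD8+ against spleen, 0 and 3 and 0 and 4 for iRTE against Artificial CD8 and CD4+CD8+, and 1 and 0 between those.

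Scaled by library totals, the median of all genes in iRTE against spleen was -0.23, where TMM gave -0.05. The higher and lower calls over all genes became 2099 and 3225 in iRTE against Artificial CD8 (2788 and 2598 with TMM) and 1258 and 2153 against CD4+CD8+ cells (1648 and 1718). Depth limits Igf2bp1, Igf2bp2 and Hmga2 most, with at most 56 counts in a library.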
